A study of Rattus norvegicus with 6 samples.

Results

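Growth hormone, insulin-like growth factor 1 and insulin act on the liver through a small set of genes, and 5 of them are described here in rat liver and hepatocytes after ischemia reperfusion (IR). They are Igf1, the circulating growth factor; Ghr, the growth hormone receptor; Insr, the insulin receptor; and Irs1 and Irs2, the adaptor proteins that carry the insulin signal inward from the receptor. The genes were chosen as a pathway list and taken from the count files by Ensembl ID: Igf1 is ENSRNOG00000004517, Ghr ENSRNOG00000015654, Insr ENSRNOG00000029986, Irs1 ENSRNOG00000014597 and Irs2 ENSRNOG00000023509. All 5 IDs were found among the 26689 gene IDs of the files, and all 5 passed the filter on low counts, as did 9932 IDs in total. The pairing of ID and symbol comes from that list. Neither the files nor the reference table pairs these IDs with symbols (0 of 26689 IDs matched), so the pairing could not be checked, and every gene name below rests on it.

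As background, growth hormone from the pituitary binds Ghr on hepatocytes, and the liver answers by making and secreting most of the Igf1 found in blood. Insulin binds Insr, a receptor tyrosine kinase, which phosphorylates Irs1 and Irs2 and so engages the kinases that restrain glucose output and favour lipid and glycogen synthesis. In rodent liver, transcription of Irs2 is high in fasting and is repressed by insulin, whereas Irs1 is known as the steadier of the pair.

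RNA was read from 6 groups of Rattus norvegicus. Treated IR animals were given 2 drugs. Etanercept, a soluble receptor that captures tumor necrosis factor, was dosed at 9 mg/kg, 16 to 18 h ahead of the injury. Nitroglycerin, which releases nitric oxide, was infused intravenously at 6 µg/kg/min ahead of IR and throughout it. IR animals had the portal vein clamped for a time and released, with neither drug, and control animals were healthy and untreated. Each condition was read once in freshly isolated hepatocytes, obtained by collagenase perfusion of additional animals, and once in whole liver, with tissue taken 1 day after IR. The labels give no strain, age or sex, and no sham operation, so IR against control is also operated against unoperated animals.

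Each library holds pooled RNA of 3 animals, so a group is 1 library and a difference between 2 libraries has no replicate check. Reads counted in genes ranged from 1945331 in liver control to 7160610 in liver IR. Alignments that were not unique, and so not counted, made up 60.1% of alignments in liver IR and 41.1% to 46.3% in the other libraries, and the part of this in the results was not tested. Levels are given as CPM, the reads of a gene relative to all reads in genes, scaled by TMM, a factor that lines libraries up on the bulk of their genes. CPM is not divided by transcript length, so levels of different genes are not set against each other, and a ratio of reads between 2 genes is read only across libraries. Intervals in brackets are 95% counting intervals, which cover counting error alone and not the variation between animals. A pair of libraries is called apart where a gene is at least 2-fold different and the interval of the ratio leaves out 1. A bulk library cannot tell fewer cells of a type from less RNA per cell. Markers of hepatocytes and of other liver cells could not be matched to IDs, so the identity of the preparations was not checked and the part of other cells in these results was not tested.

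**Figure D1:**
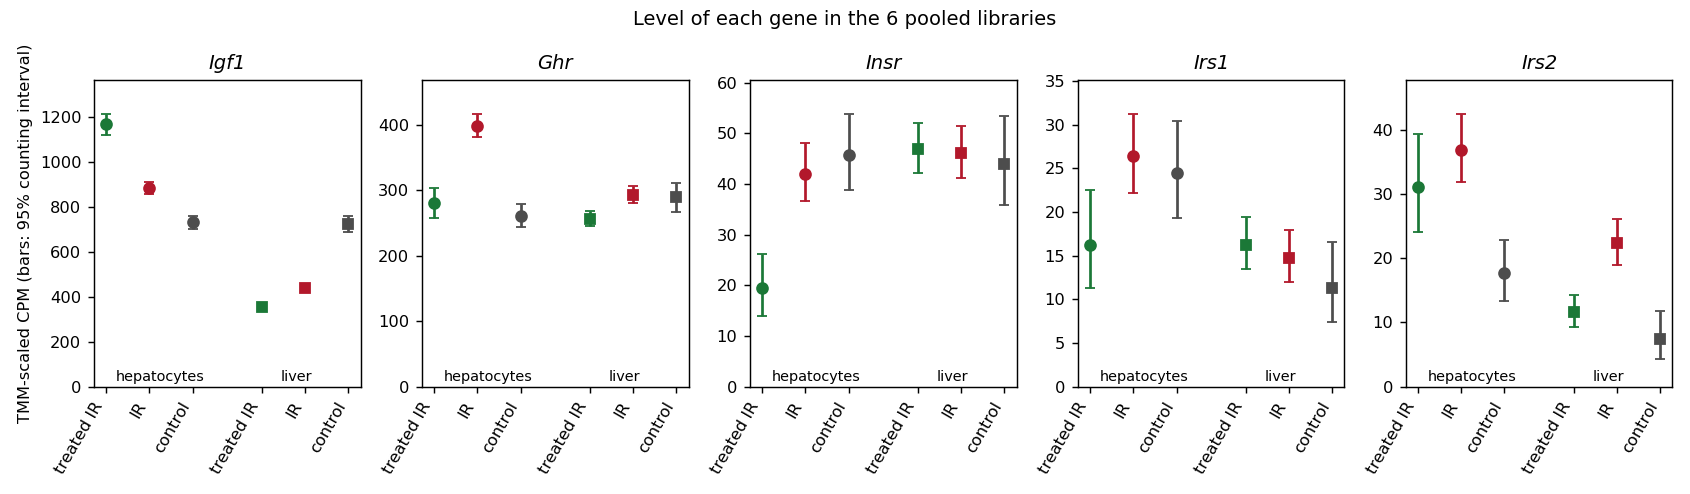
Level of the 5 genes in TMM-scaled CPM on a linear axis from 0, with hepatocytes (circles) left of liver (squares) and 1 point per pooled library; bars are 95% counting intervals. Igf1 lies highest in hepatocytes of treated IR (1169 CPM) and lowest in liver of treated IR (356 CPM), Insr stands low in hepatocytes of treated IR (19.5 CPM), and Irs2 is lowest in the control library of each preparation (17.6 CPM in hepatocytes, 7.40 CPM in liver).

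Irs2, an adaptor of the insulin receptor, was higher after IR than in control in both preparations, and it was the only gene of the 5 for which this held past 2-fold. In hepatocytes it stood at 31.0 CPM in treated IR (67 reads), 36.8 CPM in IR (191 reads) and 17.6 CPM in control (57 reads). In liver it stood at 11.6 CPM in treated IR (87 reads), 22.3 CPM in IR (151 reads) and 7.40 CPM in control (17 reads). Control was thus the lowest and IR the highest library of each preparation, with treated IR between them. That order, read off after the values were seen, was shared by 353 of 9932 features (3.55%).

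The ratio of Irs2 in IR over control was 2.09 (1.55 to 2.86) in hepatocytes and 3.02 (1.82 to 5.32) in liver. Both were called, where 16.5% of all features were called in hepatocytes and 5.98% in liver. In the test across both preparations, given further on, Irs2 did not pass (edgeR adjusted p = 0.996). Of all 9932 features, 45 (0.453%) were called higher in IR than in control in both preparations, and Irs2 was among them. With library totals alone 13 features were, and 62 shared its order, Irs2 included in both. In hepatocytes 17.0% of features lay at least as far from equality as Irs2 did, and in liver 2.25%. The liver ratio rests on 17 reads in control, which is why its interval is wide. The hepatocyte ratio over the liver ratio was 0.692 (0.387 to 1.24), an interval that holds 1.

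Treated IR set against IR gave a ratio of Irs2 below 1 in each preparation, and how far the preparations differed depended on the scaling. In hepatocytes the ratio was 0.842 (0.628 to 1.12). In liver the treated IR library held 0.519 times the level of the IR library (0.394 to 0.680), just short of the 2-fold rule, and 3.07% of features lay at least as far apart. The hepatocyte ratio over the liver ratio was 1.62 (1.11 to 2.38). With library totals alone it was 1.01 (0.689 to 1.48), from log2 ratios of -0.54 in hepatocytes and -0.55 in liver, so a difference between the preparations was not fixed by these data. Treated IR over control was 1.76 (1.22 to 2.55) in hepatocytes and 1.57 (0.924 to 2.81) in liver, and neither was called.

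Irs1, the other adaptor, lay within a narrower span. Its hepatocyte levels were 16.2 CPM in treated IR (35 reads), 26.4 CPM in IR (137 reads) and 24.5 CPM in control (79 reads), so that treated IR was the low library there. The liver levels were 16.2 CPM in treated IR (122 reads), 14.8 CPM in IR (100 reads) and 11.3 CPM in control (26 reads), with intervals that overlap. IR over control was 1.08 (0.813 to 1.44) in hepatocytes and 1.31 (0.842 to 2.10) in liver. Treated IR over IR was 0.613 (0.411 to 0.895) in hepatocytes and 1.10 (0.837 to 1.45) in liver, and treated IR over control was 0.663 (0.432 to 0.998) and 1.44 (0.934 to 2.28) in the same order. No within-preparation comparison called Irs1. The hepatocyte ratio over the liver ratio for treated IR over IR was 0.558 (0.354 to 0.880), and 0.348 (0.221 to 0.549) with library totals alone.

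The ratio of Irs2 to Irs1 reads within a library needs no scaling between libraries. It counted 1.91 Irs2 reads per Irs1 read in hepatocytes of treated IR (1.25 to 2.97), 1.39 in IR (1.11 to 1.75) and 0.722 in control (0.504 to 1.03). In liver it was 0.713 in treated IR (0.535 to 0.947), 1.51 in IR (1.17 to 1.96) and 0.654 in control (0.333 to 1.25). IR exceeded control 1.93-fold in hepatocytes (1.29 to 2.90) and 2.31-fold in liver (1.19 to 4.47). Treated IR over IR was 1.37-fold in hepatocytes (0.863 to 2.18) and 0.472-fold in liver (0.325 to 0.686). Treated IR over control was 2.65-fold in hepatocytes (1.56 to 4.52) and 1.09-fold in liver (0.558 to 2.13), so the read ratio of treated IR stood above control in hepatocytes beyond counting error, and in liver it did not. That contrast is not one of Irs2 alone. For treated IR over control the hepatocyte ratio over the liver ratio was 1.12 (0.599 to 2.10) for Irs2 and 0.462 (0.258 to 0.825) for Irs1.

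**Figure D2:**
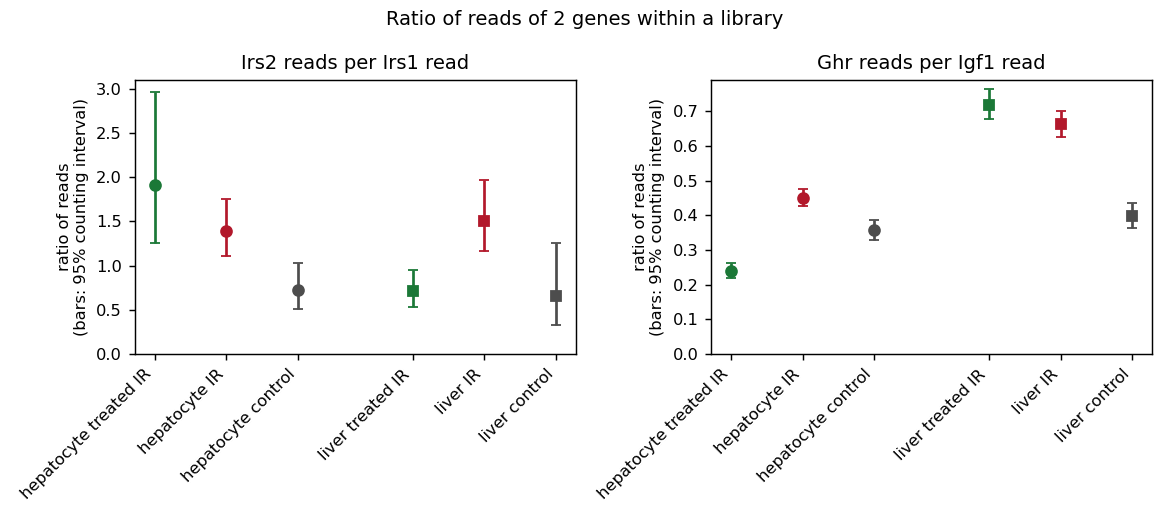
Reads of one gene per read of another within each library, on linear axes from 0, with hepatocytes (circles) left of liver (squares); bars are 95% counting intervals. The Irs2 to Irs1 ratio is higher in IR than in control in hepatocytes (1.39 and 0.722) and in liver (1.51 and 0.654), and the Ghr to Igf1 ratio is highest in liver of treated IR (0.719).

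Insr, the insulin receptor, had almost the same level in 5 of the 6 libraries and was low in 1. In hepatocytes it stood at 19.5 CPM in treated IR (42 reads), 42.0 CPM in IR (218 reads) and 45.8 CPM in control (148 reads). In liver it stood at 46.9 CPM in treated IR (352 reads), 46.1 CPM in IR (312 reads) and 44.0 CPM in control (101 reads). The liver libraries differed by less than their counting error, although with library totals alone liver treated IR over IR had a log2 ratio of 0.41. The interval of the treated IR hepatocytes overlaps none of the others, and with library totals alone its log2 ratio to IR hepatocytes was -1.40.

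In hepatocytes the Insr ratio was 0.463 (0.324 to 0.646) for treated IR over IR and 0.424 (0.294 to 0.602) for treated IR over control, and both were called, where 23.3% and 8.32% of features were. These 2 ratios share the treated IR library. In liver the same ratios were 1.02 (0.870 to 1.19) and 1.07 (0.852 to 1.34). The hepatocyte ratio over the liver ratio was 0.455 (0.316 to 0.655) for treated IR over IR, and 0.284 (0.197 to 0.408) with library totals alone. IR over control was 0.918 (0.741 to 1.14) in hepatocytes and 1.05 (0.836 to 1.33) in liver. The low level in treated IR hepatocytes was shared by Irs1, which was also lowest there among hepatocytes, but not by every gene. Igf1 was highest there (1169 CPM), Irs2 lay between IR and control (31.0 CPM), and Ghr (280 CPM) lay near control (261 CPM). In hepatocytes, Insr reads per Irs1 read changed 0.754-fold (0.459 to 1.24) for treated IR over IR. For treated IR over control the change was 0.641-fold (0.379 to 1.08), and both intervals hold 1. Insr reads per Irs2 read changed 0.549-fold (0.357 to 0.846) for treated IR over IR in hepatocytes. For treated IR over control that change was 0.241-fold (0.148 to 0.395), and both of these intervals leave out 1. For scale, 23.1% of features lay at least as far apart as Insr between treated IR and IR hepatocytes, and 7.97% between treated IR and control hepatocytes. Treated IR hepatocytes had the lowest depth of their preparation (2716994 reads in genes) and the lowest TMM factor of the 6 libraries (0.795), and the part of this in the Insr value was not tested.

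Igf1, the hormone that growth hormone draws from the liver, lay above control after IR in hepatocytes and below it in liver, with and without treatment. In hepatocytes it stood at 1169 CPM in treated IR (2524 reads), 886 CPM in IR (4591 reads) and 732 CPM in control (2364 reads). In liver it stood at 356 CPM in treated IR (2673 reads), 442 CPM in IR (2989 reads) and 725 CPM in control (1666 reads). On this scale the control libraries of hepatocytes and liver were close, and the order of the conditions was reversed between the preparations.

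IR over control was 1.21 (1.15 to 1.27) in hepatocytes and 0.609 (0.574 to 0.647) in liver for Igf1. Treated IR over control was 1.60 (1.51 to 1.69) in hepatocytes and 0.491 (0.462 to 0.522) in liver, and only the liver ratio was called, where 7.21% of features were. Treated IR over IR was 1.32 (1.26 to 1.39) in hepatocytes and 0.806 (0.764 to 0.849) in liver. With at least 1666 reads in every library the counting intervals are narrow, but they say nothing of how animals vary. In hepatocytes 69.4% of features lay at least as far apart as Igf1 between IR and control, against 16.5% in liver. For treated IR over IR these shares were 65.1% in hepatocytes and 31.75% in liver, and for treated IR over control 28.8% and 8.47%. With libraries scaled by their totals alone, the liver log2 ratio was -1.04 for IR over control, which is then called, and -0.96 for treated IR over control, which is then not called; for treated IR over IR in liver it changed sign, to 0.080, beside 0.11 in hepatocytes. The hepatocyte ratio over the liver ratio for treated IR over IR was 1.64 (1.53 to 1.76) by TMM and 1.02 (0.951 to 1.10) by totals, whereas for IR over control and treated IR over control it was 2.58 (2.38 to 2.78) and 2.63 (2.42 to 2.86) by totals.

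Ghr, the receptor upstream of Igf1, was the steadiest of the 5 genes across the 6 libraries, with a coefficient of variation of 17.7% against 25.9% to 53.4% for the others. Within a preparation it did not stand apart. In liver Insr varied less (3.31% against 7.24% for Ghr), and in hepatocytes Ghr (23.8%) was level with Igf1 (23.9%) and Irs1 (24.2%). Hepatocyte levels were 280 CPM in treated IR (605 reads), 399 CPM in IR (2068 reads) and 261 CPM in control (843 reads). Liver levels were 256 CPM in treated IR (1923 reads), 293 CPM in IR (1981 reads) and 289 CPM in control (664 reads). The IR hepatocytes were the one library that stood above the rest, and the liver libraries spanned 1.14-fold.

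For Ghr, IR over control was 1.53 (1.41 to 1.66) in hepatocytes and 1.01 (0.928 to 1.11) in liver. Treated IR over IR was 0.702 (0.641 to 0.769) in hepatocytes and 0.874 (0.821 to 0.932) in liver, and treated IR over control was 1.07 (0.965 to 1.19) in hepatocytes and 0.886 (0.811 to 0.969) in liver. None was called. With library totals alone the liver log2 ratios were -0.30 for IR over control and 0.20 for treated IR over IR, so their direction is not fixed by these data. Nor is that of treated IR over control in hepatocytes, at 0.10 by TMM and -0.13 by totals. The hepatocyte ratio over the liver ratio for IR over control was 1.51 (1.34 to 1.70) by TMM and 1.96 (1.74 to 2.20) by totals. For treated IR over IR it was 0.803 (0.719 to 0.897) and 0.501 (0.449 to 0.559), and for treated IR over control 1.21 (1.06 to 1.39) and 0.980 (0.855 to 1.12).

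Ghr and Igf1 were also set against each other within a library, where scaling plays no part. There were 0.240 Ghr reads per Igf1 read in hepatocytes of treated IR (0.219 to 0.262), 0.450 in IR (0.427 to 0.475) and 0.357 in control (0.329 to 0.386). In liver there were 0.719 in treated IR (0.678 to 0.763), 0.663 in IR (0.626 to 0.702) and 0.399 in control (0.364 to 0.436). The IR ratio exceeded control 1.26-fold (1.15 to 1.39) in hepatocytes and 1.66-fold (1.495 to 1.85) in liver. Treated IR over IR was 0.532-fold (0.480 to 0.590) in hepatocytes and 1.09-fold (1.0004 to 1.18) in liver. Treated IR over control was 0.672-fold (0.597 to 0.757) in hepatocytes and 1.81-fold (1.62 to 2.01) in liver, so treated IR lay below control in hepatocytes and above it in liver.

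**Figure D3:**
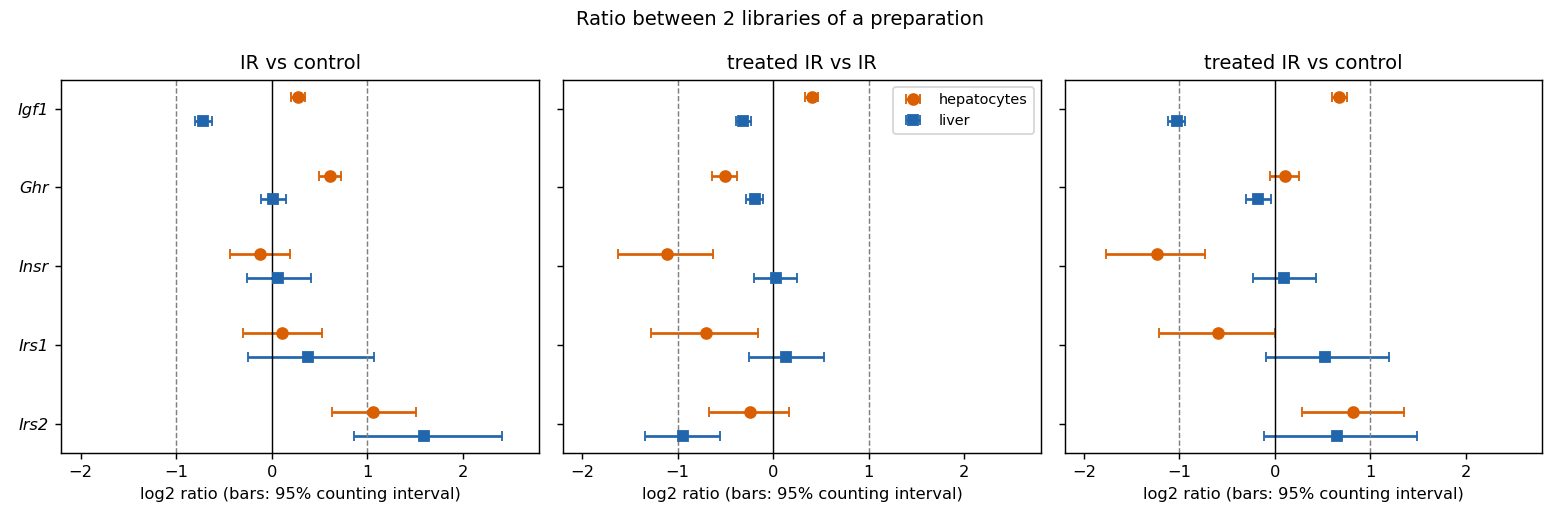
Log2 ratio of each gene between 2 libraries of a preparation, for IR vs control, treated IR vs IR and treated IR vs control; orange circles are hepatocytes, blue squares liver, bars 95% counting intervals, and dashed lines mark 2-fold. Irs2 lies right of 0 in both preparations for IR vs control (1.06 in hepatocytes, 1.59 in liver), whereas Igf1 lies on opposite sides (0.27 and -0.71). Insr lies left of 0 past 2-fold in both comparisons of treated IR hepatocytes (-1.11 and -1.24). Irs1 also lies left of 0 there, short of 2-fold (-0.71 and -0.59).

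Counted over the 5 genes, 1 was called higher and 0 lower for IR over control in hepatocytes, where 16.5% of features were called in either direction, and likewise 1 and 0 in liver, where 5.98% were. For treated IR over IR, 0 were called higher and 1 lower in hepatocytes (23.3% of features called), and 0 in liver (2.77%). For treated IR over control, 0 were called higher and 1 lower in hepatocytes (8.32%), and likewise 0 and 1 in liver (7.21%). A count of 1 in 5 is close to the share of all features in the hepatocyte comparisons of IR with control and of treated IR with IR, and 5 genes are too few to set a share against it elsewhere. The median log2 ratio of the 5 genes for IR over control was 0.27 in hepatocytes and 0.069 in liver, against 0.015 and 0.045 over all features.

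Whether hepatocytes and liver changed together was asked with edgeR's quasi-likelihood test over the 6 libraries, in which preparation was a term. The spread there includes any response that differs between hepatocytes and liver. For IR vs control 0 of 9932 features passed an adjusted p of 0.05 (0%), with 332 at an unadjusted p under 0.05, and DESeq2 and limma-voom also called 0, with 119 and 314. Irs2 had a log2 ratio of 1.32 (SE 0.36), higher in IR in 2 of 2 preparations, with an edgeR unadjusted p of 0.00255 and an adjusted p of 0.996. It therefore failed the correction. Leaving out 1 library called 402 features without liver IR and 3 to 23 without any other, and none of the 5 genes in any of these fits (Irs2 adjusted p from 0.170 to 1). The other 4 genes had log2 ratios from -0.29 (Igf1, SE 0.49) to 0.32 (Ghr, SE 0.40).

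Treated IR against IR called 0 features by edgeR (0%; 297 at an unadjusted p under 0.05), 0 by limma-voom (401) and 1 by DESeq2 (175), which was none of the 5 genes. Leaving out liver IR called 659 features, liver treated IR 103, hepatocyte IR 18, hepatocyte treated IR 13, liver control 2 and hepatocyte control 0, with none of the 5 genes among them. Irs2 stood at a log2 ratio of -0.60 with an SE of 0.34 (edgeR adjusted p = 0.981), lower in treated IR in 2 of 2 preparations, and Insr at -0.45 with an SE of 0.38 (edgeR adjusted p = 0.981). Treated IR against control also called 0 features (0%; 230 at an unadjusted p under 0.05), as did DESeq2 (101) and limma-voom (270). Leaving out 1 library called 37 features without hepatocyte IR, 36 without liver IR, 21 without liver treated IR, 20 without hepatocyte control, 17 without hepatocyte treated IR and 0 without liver control, none of them the 5 genes. Irs2 stood at a log2 ratio of 0.72 with an SE of 0.37 (edgeR adjusted p = 1).

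Hepatocytes were set against whole liver with 3 libraries on each side and condition as a term. Every hepatocyte library came from cells isolated by collagenase perfusion of additional animals. Cell content, isolation and animals therefore cannot be told apart in this contrast. Irs2 was 2.15-fold higher in hepatocytes, and it was the 1 gene of the 5 that passed. It averaged 28.5 ± 9.84 CPM in hepatocytes and 13.8 ± 7.70 CPM in liver (mean ± SD over 3 conditions, n = 3 each), and the log2 ratio was 1.11 with an SE of 0.29 (edgeR adjusted p = 0.0367), higher in 3 of 3 conditions. Of 9932 features 530 passed (5.34%), 43 of them higher and 487 lower in hepatocytes. Because condition is a term, leaving out either library of a condition gives the other no weight in this contrast, so such fits come in pairs. The call was lost without either library of control (log2 ratio 1.07 each) or of treated IR (0.91 without liver, 0.95 without hepatocytes). The call held without either library of IR (1.35 without liver, 1.30 without hepatocytes). It was also lost with library totals alone (0.317), a minimum count of 50 (0.111), DESeq2's test (0.122) and no condition term (0.291), and held with DESeq2's size factors (0.0381), limma-voom (0.0432) and no filter (0.0124), while the log2 ratio over all these fits lay between 0.81 and 1.35.

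The other 4 genes did not pass. Igf1 averaged 929 ± 222 CPM in hepatocytes and 508 ± 193 CPM in liver, and differed by 0.91 on the log2 scale with an SE of 0.41 (edgeR adjusted p = 0.457). Irs1 averaged 22.4 ± 5.42 CPM in hepatocytes and 14.1 ± 2.53 CPM in liver, and differed by 0.64 on the log2 scale with an SE of 0.30 (edgeR adjusted p = 0.508). Ghr and Insr had log2 ratios of 0.14 (SE 0.32) and -0.42 (SE 0.31). The median of the 5 genes was 0.64, against 0.032 over all features.

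Hepatocytes and liver were also compared within each condition; whether a gap differed between conditions was not tested. In control animals 2 of the 5 were called higher in hepatocytes (11.1% of features called in either direction), Irs1 at 2.16-fold (1.37 to 3.51) and Irs2 at 2.39-fold (1.37 to 4.37), both on few liver reads. Both calls were lost with library totals alone, at log2 ratios of 0.78 and 0.92. After IR alone Igf1 was called, at 2.004-fold (1.91 to 2.10), where 17.4% of features were, and that call was lost with DESeq2's size factors or a minimum count of 50. Irs1 at 1.79-fold (1.37 to 2.34) and Irs2 at 1.65-fold (1.33 to 2.06) were again above 1 after IR, short of the 2-fold rule. After treated IR, Igf1 was 3.28-fold higher (3.11 to 3.47), Irs2 2.68-fold higher (1.92 to 3.73) and Insr 0.415-fold (0.294 to 0.573), where 19.7% were called. With library totals alone these were 2.11-fold (1.99 to 2.22), 1.72-fold (1.23 to 2.39), which is not called, and 0.266-fold (0.188 to 0.367). Igf1 in control was 1.01-fold (0.948 to 1.08), and 0.800-fold (0.751 to 0.853) with library totals alone.

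For each of the 4 genes with the most reads, the feature whose log2 CPM followed it most closely over the 6 libraries was looked up among the 9932. The closest to Igf1 was ENSRNOG00000016201 (Pearson r = 0.987, Spearman rho = 1), with 35.7, 29.9 and 28.8 CPM in treated IR, IR and control hepatocytes and 18.5, 21.6 and 25.7 CPM in the same order in liver. The closest to Insr was ENSRNOG00000010161 (r = 0.996, rho = 1), at 13.4 CPM in treated IR hepatocytes and 25.3 to 28.6 CPM in the other libraries. ENSRNOG00000010519 was closest to Ghr (r = 0.990, rho = 0.771), with 129 CPM in IR hepatocytes and 53.5 to 65.8 CPM elsewhere. ENSRNOG00000034200 was closest to Irs2 (r = 0.989, rho = 1), but at 1.31 to 4.82 CPM, down to the level of 3 reads in liver control. The files give these IDs no name. With 6 points that share 2 preparations, an r over 0.95 was reached by 29 features for Igf1, 123 for Insr, 58 for Ghr and 22 for Irs2, so these are descriptions of 6 libraries only.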

How the data were processed

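Poly(A)-selected RNA, pooled from 3 animals per group, was built into libraries with the Ion Total RNA-Seq kit, per the labels' protocols. The deposited files, 1 for each library, give raw read counts by Ensembl gene ID. The submitters' processing notes name TopHat2 2.0.13 and HTSeq 0.6.1. The genome build is not given in the sources used here, nor are the annotation and the strand setting of the counting. Reads of overlapping or antisense genes could thus be lost or added. The summary lines at the end of each file, which name no gene, were left out of the gene counts. They served only to give the shares of alignments that were not unique, outside genes or ambiguous. Reads outside genes made up 6.23% to 8.34% and ambiguous reads 0.358% to 0.798% of unique reads.

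Low features were dropped by filterByExpr of edgeR, at a minimum count of 10 and with conditions as groups, and libraries were scaled by TMM (factors 0.795 to 1.24). Pairs of libraries were compared by ratios with a 95% Clopper-Pearson counting interval and no p-value. Levels carry exact Poisson intervals. Ratios of ratios carry normal intervals on the log scale. Reads carry no molecular identifiers, so intervals cover counting error only. Features lying at least as far apart were ranked on log2 ratios with a prior count of 2.

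Tests were edgeR's quasi-likelihood test with preparation and condition as additive terms over the 6 libraries. This leaves 2 residual degrees of freedom per gene, to which the test adds prior degrees of freedom estimated over all features. The p-values therefore rest in part on spread borrowed from other genes. The common biological coefficient of variation was 0.288. P-values were Benjamini-Hochberg adjusted over 9932 features, and SEs were derived from the F statistic. Hepatocyte and liver pools were treated as separate samples because hepatocytes came from additional animals. The scripts were tested on simulated data. R 4.3.3 was used with edgeR 4.0.16, DESeq2 1.42.0 and limma 3.58.1.

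Groups came from the sample titles. The members and lists were chosen with earlier results of these data known. The named genes were the 5 members, other pathway genes and cell type markers by symbol, and the closest feature to each of the 4 members with the most reads. No other symbol could be matched to an ID, so other pathway genes and markers are not analysed here. Other settings tried were scaling by DESeq2's size factors or by totals, filters of 0 and 50 counts, a 4-fold rule, DESeq2's Wald test, limma-voom, a fit with no condition term and fits without each library. Ratios within a library, ratios of ratios and the counts of features sharing the pattern of Irs2 were added after seeing the data.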

Additional observations from a re-analysis of the deposited data

Results flagged for a closer look

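Igf1 lay on opposite sides of equality in the 2 preparations in each of the 3 comparisons with TMM scaling, with every counting interval leaving out equality. For IR vs control its log2 ratio was 0.27 in hepatocytes and -0.71 in liver. For treated IR vs IR it was 0.40 in hepatocytes and -0.31 in liver, and for treated IR vs control 0.68 in hepatocytes and -1.03 in liver. The 3 comparisons share libraries and are not separate evidence. The hepatocyte ratio over the liver ratio was 1.99 (1.84 to 2.15), 1.64 (1.53 to 1.76) and 3.25 (2.99 to 3.53) in the same order, by counting error alone. Whether the preparations differ beyond the variation between animals was not tested, since 1 library stands for each group. How many of all features lie on opposite sides in this way was not counted, so the pattern is not shown to be rare. For treated IR vs IR, 65.1% of features in hepatocytes and 31.75% in liver lay at least as far apart as Igf1. With library totals alone the log2 ratio for treated IR vs IR was 0.11 in hepatocytes and 0.080 in liver, on the same side, and the hepatocyte ratio over the liver ratio was 1.02 (0.951 to 1.10), which leaves no difference beyond counting error. By totals the other comparisons still lay on opposite sides, at 0.33 in hepatocytes and -1.04 in liver for IR vs control and 0.44 and -0.96 for treated IR vs control.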

How the results depend on the processing

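No paired analysis was possible because each group is 1 library and the labels give no replicate numbers. Of 225 log2 ratios of the 5 genes recomputed between pairs of libraries, 192 kept their side of the rule and moved by less than their counting interval, 15 moved further, 17 lost a call, 1 gained one and 0 reversed a called direction. These include the 4-fold rule, which has the filter and scaling of the main setting. Its ratios could not move and could only lose a call, so they do not bear on robustness. Of 245 recomputed in the tests across both preparations, 221 kept direction and call, 8 lost the call (all Irs2, hepatocytes vs liver) and 16 reversed, none of which had passed the test. Causes were not tested.

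Library totals alone moved the median log2 ratio of all features, relative to TMM, by -0.31 for liver IR vs control, 0.38 for liver treated IR vs IR, -0.28 and -0.23 for treated IR vs IR and vs control in hepatocytes, and -0.32 and -0.62 for hepatocytes vs liver in control and treated IR. The share of called features that were higher was then 18.7% in place of 62.8%, 95.9% in place of 65.8%, 25.2% in place of 48.2%, 18.7% in place of 50.8%, 12.2% in place of 34.9% and 3.43% in place of 34.9%, in that order. Members called became 2 for liver IR vs control, 0 for liver treated IR vs control, 0 for hepatocytes vs liver in control and 2 in place of 3 in treated IR (Irs2 at 0.78), and features called 636 for liver treated IR vs IR and 3149 for hepatocytes vs liver in treated IR. With DESeq2's size factors or a minimum count of 50, 0 members were called for hepatocytes vs liver in IR, since Igf1 lay at a log2 ratio of 1.003 by TMM. Features called higher for IR vs control in both preparations numbered 38 by DESeq2's size factors and 13 by totals, and those in the order of Irs2 335 and 62. Irs2 was among them each time.

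With the 4-fold rule 0 members were called in any of the 9 pairs, and features called numbered 338 (hepatocytes) and 129 (liver) for IR vs control, 591 and 37 for treated IR vs IR, 147 and 170 for treated IR vs control, and 595, 729 and 792 for hepatocytes vs liver in control, IR and treated IR. A minimum count of 50 gave 879 and 254, 1413 and 58, 468 and 292, and 482, 646 and 894 in the same order, and 158 in the test of hepatocytes vs liver. No filter gave 504 for liver treated IR vs IR, beside 275, and in the tests across both preparations 3 for IR vs control, 31 for treated IR vs IR and 14 for treated IR vs control. DESeq2's test called 1 for treated IR vs IR.

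Leaving out 1 library at a time gave 390 to 755 features for hepatocytes vs liver, 3 to 402 for IR vs control, 0 to 659 for treated IR vs IR and 0 to 37 for treated IR vs control. A condition is then held by 1 library, assumed to vary like the rest. Directions of single genes that turned in such fits, with their lowest and highest log2 ratio, were Ghr for hepatocytes vs liver (-0.057 to 0.30; -0.17 with library totals), Igf1 (-0.88 to 0.46), Irs1 (-0.076 to 0.60) and Insr (-0.38 to 0.36) for IR vs control, Igf1 (-0.59 to 0.57), Insr (-1.21 to 0.063) and Irs1 (-0.82 to 0.19) for treated IR vs IR, and Igf1 (-0.84 to 0.50), Ghr (-0.26 to 0.18), Irs1 (-0.58 to 0.43) and Insr (-1.24 to 0.035) for treated IR vs control. Depth limits the 2 adaptors most: liver control held 17 reads of Irs2 and 26 of Irs1.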
